A study of Mus musculus with 225 samples.

Results

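The fibroblast growth factor (FGF) receptors and FGF feedback genes described here are 9 of the 23165 genes counted in single cells of the embryonic mouse forelimb. They were chosen by name: 3 receptor genes, *Fgfr1*, *Fgfr2* and *Fgfr3*, and 6 genes that FGF signalling is known to induce, *Etv4*, *Etv5*, *Spry1*, *Spry2*, *Spry4* and *Dusp6*. All 9 were in the table of read counts, and 8 were in the table of normalized values, which has no entry for *Etv4*.

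The study sampled the autopod, the distal limb that forms the digits, and the zeugopod, the segment that forms the forearm, at embryonic day 12.5. All embryos were heterozygous for *Hoxd11::GFP*, a tau-GFP sequence knocked in frame into *Hoxd11*, on a mixed C57Bl6CBAF1 background. Only the cells with the brightest GFP were sorted, so they describe limb cells bright for GFP and not the whole limb. The study reported that some of the sorted autopod cells held *Hoxd13* but no *Hoxd11* mRNA. Forelimbs were pooled before sorting, cells were captured on a Fluidigm C1 chip, and polyadenylated RNA was copied with SMARTer chemistry and sequenced after Nextera XT library preparation. Autopod cells came from runs NXT0072 and NXT0143 and zeugopod cells from runs NXT0142 and NXT0143, so NXT0143 was the only run that held both tissues.

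Of 225 captured cells the authors had retained 76 of the autopod, 59 from NXT0072 and 17 from NXT0143, with 58 of the zeugopod from NXT0142 and 65 from NXT0143. Reads on genes per cell in the autopod had a lowest, median and highest value of 261335, 3076199 and 9437447 in NXT0072 and of 187344, 2641867 and 4312635 in NXT0143. In the zeugopod they were 186271, 4048526 and 6801278 in NXT0142 and 425695, 2659813 and 4282436 in NXT0143. The 4 groups overlapped in depth, with the highest median in zeugopod cells of NXT0142, which also had the most genes detected, a median of 4284 against 3528, 3965 and 3745 in autopod cells of NXT0072, autopod cells of NXT0143 and zeugopod cells of NXT0143. The study assigned some autopod cells to 1 female embryo by *Xist* and Y chromosome genes, but the sample labels name no embryo for any cell. Each tissue is therefore 1 pooled sample, cells are not replicates, and no test was made. The 95% intervals below are exact binomial (Clopper-Pearson) intervals of shares of cells and cover counting error only, since reads carried no molecular identifiers. Where no cell was counted, the share that 3 cells would be is named as its limit.

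FGF receptors are tyrosine kinases that, once bound by FGF and heparan sulfate, signal through the RAS, RAF, MEK and ERK cascade. ERK activity raises the ETS factors *Etv4* and *Etv5* and also the Sprouty genes and *Dusp6*, whose products dampen the same cascade, so these genes are widely used as a readout of FGF signalling. In the limb bud, FGFs from the apical ectodermal ridge maintain the underlying mesenchyme, and later FGF receptors act in cartilage condensations and growth plates.

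The tissue labels were checked by marker genes, calling a gene detected in a cell at 5 reads or more. *Hoxd13*, a digit gene, was detected in 91.5% of autopod cells of NXT0072 and in 64.7% of those of NXT0143, but in 1 zeugopod cell (0.813%). *Shox2*, a gene of the proximal and middle limb, was detected in 59.3% of zeugopod cells and in 0 of 76 in the autopod, where 3 cells would be 3.95%. Autopod cells of NXT0143 stood apart from those of NXT0072 by lower levels of all 3 autopod genes examined, *Hoxd13*, *Hoxa13* and *Msx1*. Their differences in mean log2(normalized value + 1) had a median of -1.73 and ran from -4.86 to -1.22. For this reason levels and differences are given by run, and shares pooled over runs are given by tissue. No retained cell had the same counts as another, the number of such cells being 0.

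The receptors came first in the order of signalling. *Fgfr1* (ENSMUSG00000031565, chr8:25513654-25575718, plus strand, GRCm38, as are all positions given) is the receptor of undifferentiated limb mesenchyme. *Fgfr2* (ENSMUSG00000030849, chr7:130162451-133123350, minus strand) acts in ectoderm and in prechondrogenic condensations. The annotated span of *Fgfr2* covers 69 other genes, and its exons share 314 of 10328 bases with *Ctbp2* on the same strand. Any *Fgfr2* reads on these bases cannot be told apart from *Ctbp2* reads by position, and *Ctbp2* held 47422 reads in all retained cells. The normalized values imply a length of 6.95 kb for *Fgfr2*, so it is not known whether the shared bases were counted for it. Exons of *Fgfr3* and *Spry1* share 998 of 7158 and 710 of 2906 bases with genes of the other strand, which held 33 and 73 reads. *Fgfr3* (ENSMUSG00000054252, chr5:33721674-33737068, plus strand) restrains the proliferation of chondrocytes.

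*Fgfr1* was the receptor detected in the most cells of every group, in 62.7% of autopod cells of NXT0072, 70.6% of those of NXT0143, 74.1% of zeugopod cells of NXT0142 and 66.2% of those of NXT0143. Its normalized values, reads scaled by spike-ins and divided by gene length in kb, had a lowest, median and highest of 0.125, 6.39 and 780 in autopod cells of NXT0072 and of 0.125, 11.2 and 2770 in those of NXT0143. The corresponding *Fgfr1* values were 0.125, 16.5 and 750 in zeugopod cells of NXT0142 and 0.125, 4.39 and 645 in those of NXT0143. The groups overlapped almost throughout their range, and neither tissue had the higher median in both pairs of groups. The lowest value, 0.125, is the value listed for 0 reads of a gene of this length.

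*Fgfr2* differed more clearly between the tissues. It was detected in 47.5% of autopod cells of NXT0072 (interval 34.3 to 60.9) and 64.7% of those of NXT0143 (38.3 to 85.8), against 24.1% of zeugopod cells of NXT0142 (13.9 to 37.2) and 24.6% of those of NXT0143 (14.8 to 36.9). After every cell was thinned to 500000 reads, which left out 3, 1, 2 and 2 cells of these 4 groups in that order, the shares with *Fgfr2* were 48.2%, 68.8%, 19.6% and 22.2%. The higher share in autopod cells was therefore present at equal numbers of reads in both pairs of groups.

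The *Fgfr2* normalized values had a lowest, median and highest of 0.144, 0.144 and 2743 in autopod cells of NXT0072 and of 0.144, 15.4 and 1729 in those of NXT0143. In the zeugopod they were 0.144, 0.144 and 703 in NXT0142 and 0.144, 0.144 and 947 in NXT0143. Only autopod cells of NXT0143 had a median above the value for 0 reads, and both autopod groups had cells above the highest zeugopod cell, although all groups overlapped.

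*Fgfr3* was the sparsest receptor, level with *Fgfr2* in zeugopod cells of NXT0142, and was detected in 22%, 23.5%, 24.1% and 18.5% of autopod cells of NXT0072 and NXT0143 and zeugopod cells of NXT0142 and NXT0143. These *Fgfr3* shares did not differ between tissues beyond counting error. All zeugopod cells of NXT0142 together held 240 *Fgfr3* reads and autopod cells of NXT0072 held 5233, of which 3 cells held 76.3%. Within NXT0143 the mean normalized value above that for 0 reads was 14.7 in autopod and 3.97 in zeugopod cells, and 6.22 and 1.45 without the highest cell of each, so the amounts rested on few cells. In thinned cells *Fgfr3* was detected in 12.5% of autopod cells (interval 5.88 to 22.4) and 3.36% of zeugopod cells (0.923 to 8.38). Most *Fgfr3*-positive zeugopod cells thus held few reads.

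**Figure D1:**
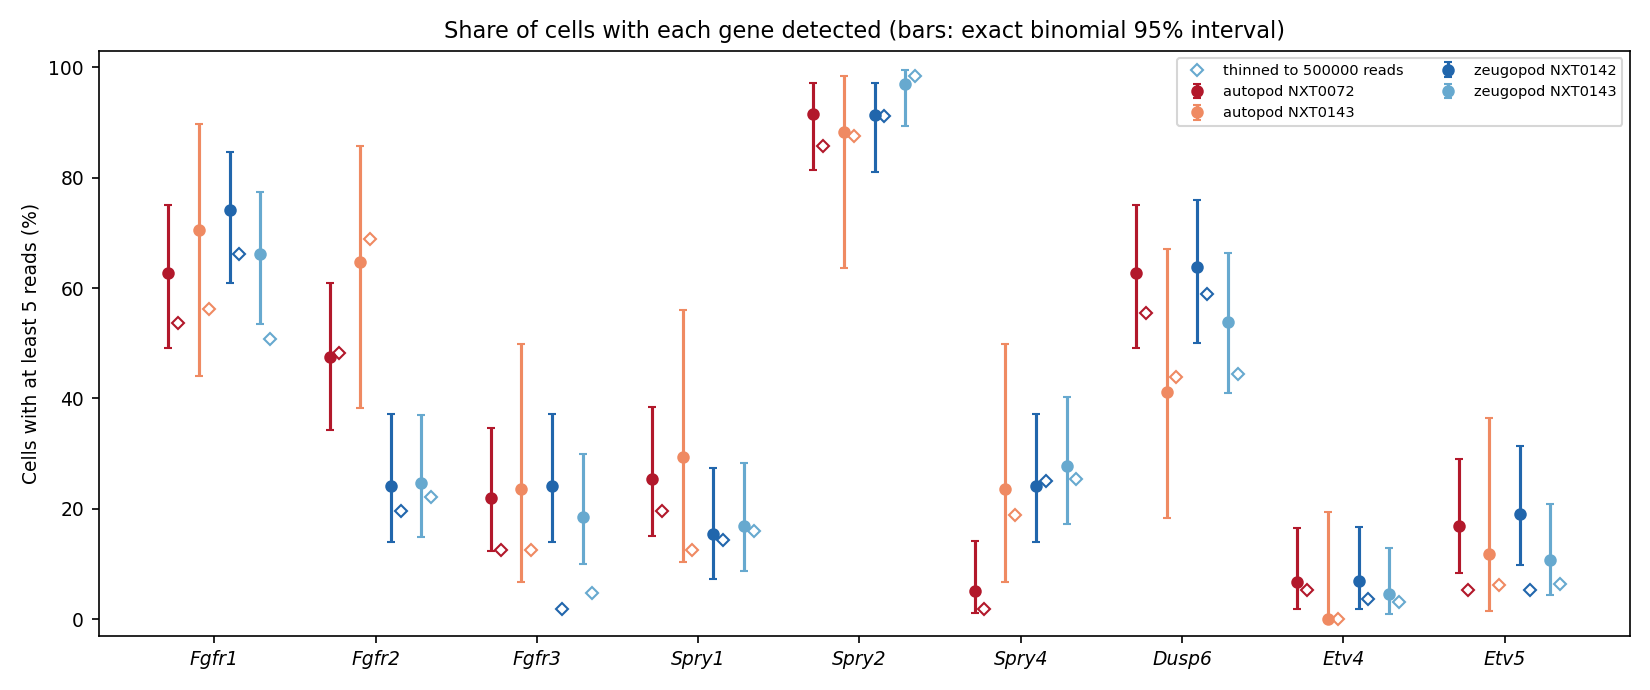
Share of retained cells with at least 5 reads of each gene (y axis, percent) for autopod and zeugopod cells of each run, with exact binomial 95% intervals; open diamonds give the share after thinning to 500000 reads. *Fgfr2* stood at 47.5% and 64.7% in the autopod groups and at 24.1% and 24.6% in the zeugopod groups, while *Spry2* was above 88% in every group.

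The ETS factors, transcription factors raised by ERK activity, were detected in few cells. *Etv4* (ENSMUSG00000017724, chr11:101769742-101785371, minus strand) was detected in 6.78%, 0%, 6.9% and 4.62% of cells of autopod NXT0072, autopod NXT0143, zeugopod NXT0142 and zeugopod NXT0143, where 3 of the 17 cells without it would be 17.6%. A single cell held 98.5% of the 6420 *Etv4* reads of zeugopod NXT0142, so no level of *Etv4* is compared. *Etv5* (ENSMUSG00000013089, chr16:22381309-22439719, minus strand) was detected in 16.9%, 11.8%, 19% and 10.8% of the same 4 groups, and its median normalized value was the value for 0 reads, 0.243, in all of them. After thinning, *Etv5* was detected in 5.56% of autopod and 5.88% of zeugopod cells, so no tissue difference was detectable at this depth for either ETS factor.

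*Spry2* (ENSMUSG00000022114, chr14:105891947-105896819, minus strand), which encodes a membrane-associated inhibitor of receptor signalling to ERK, was the most widely detected of the 9 genes. It was present in 91.5%, 88.2%, 91.4% and 96.9% of cells of autopod NXT0072, autopod NXT0143, zeugopod NXT0142 and zeugopod NXT0143. Its normalized values had a lowest, median and highest of 0.479, 86.7 and 1093 in autopod cells of NXT0072 and of 0.479, 252 and 4036 in those of NXT0143. In the zeugopod they were 0.479, 567 and 6135 in NXT0142 and 0.479, 216 and 1229 in NXT0143. Autopod cells of NXT0072 were the lowest group and zeugopod cells of NXT0142 the highest, with the 2 groups of NXT0143 between them and all groups overlapping.

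*Spry4* (ENSMUSG00000024427, chr18:38586247-38601415, minus strand) encodes an inhibitor of the same family and was absent from the reads of most cells but high in some. It was detected in 5.08% of autopod cells of NXT0072 (interval 1.06 to 14.1), 23.5% of those of NXT0143 (6.81 to 49.9), 24.1% of zeugopod cells of NXT0142 (13.9 to 37.2) and 27.7% of those of NXT0143 (17.3 to 40.2). The median normalized value was 0.218, the value for 0 reads, in every group, while the highest was 3569, 702, 2561 and 3358 in the same order. In thinned cells *Spry4* was detected in 1.79%, 18.8%, 25% and 25.4%, so the low share was that of autopod cells of NXT0072, and the 17 autopod cells of NXT0143 did not differ from the zeugopod beyond counting error. *Spry1* (ENSMUSG00000037211, chr3:37639947-37644598, plus strand), a further Sprouty gene, was detected in 25.4%, 29.4%, 15.5% and 16.9% of the 4 groups, with intervals that overlapped.

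*Dusp6* (ENSMUSG00000019960, chr10:99263231-99267489, plus strand) encodes a cytoplasmic phosphatase that inactivates ERK. It was detected in 62.7%, 41.2%, 63.8% and 53.8% of cells of autopod NXT0072, autopod NXT0143, zeugopod NXT0142 and zeugopod NXT0143. Its normalized values had a lowest, median and highest of 0.357, 24.3 and 6362 in autopod cells of NXT0072 and of 0.357, 1.07 and 3166 in those of NXT0143. In the zeugopod they were 0.357, 70 and 3728 in NXT0142 and 0.357, 3.21 and 2081 in NXT0143. The medians of *Dusp6* were therefore higher in the run that held 1 tissue than in NXT0143 for both tissues, and the groups overlapped over almost their whole range.

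**Figure D2:**
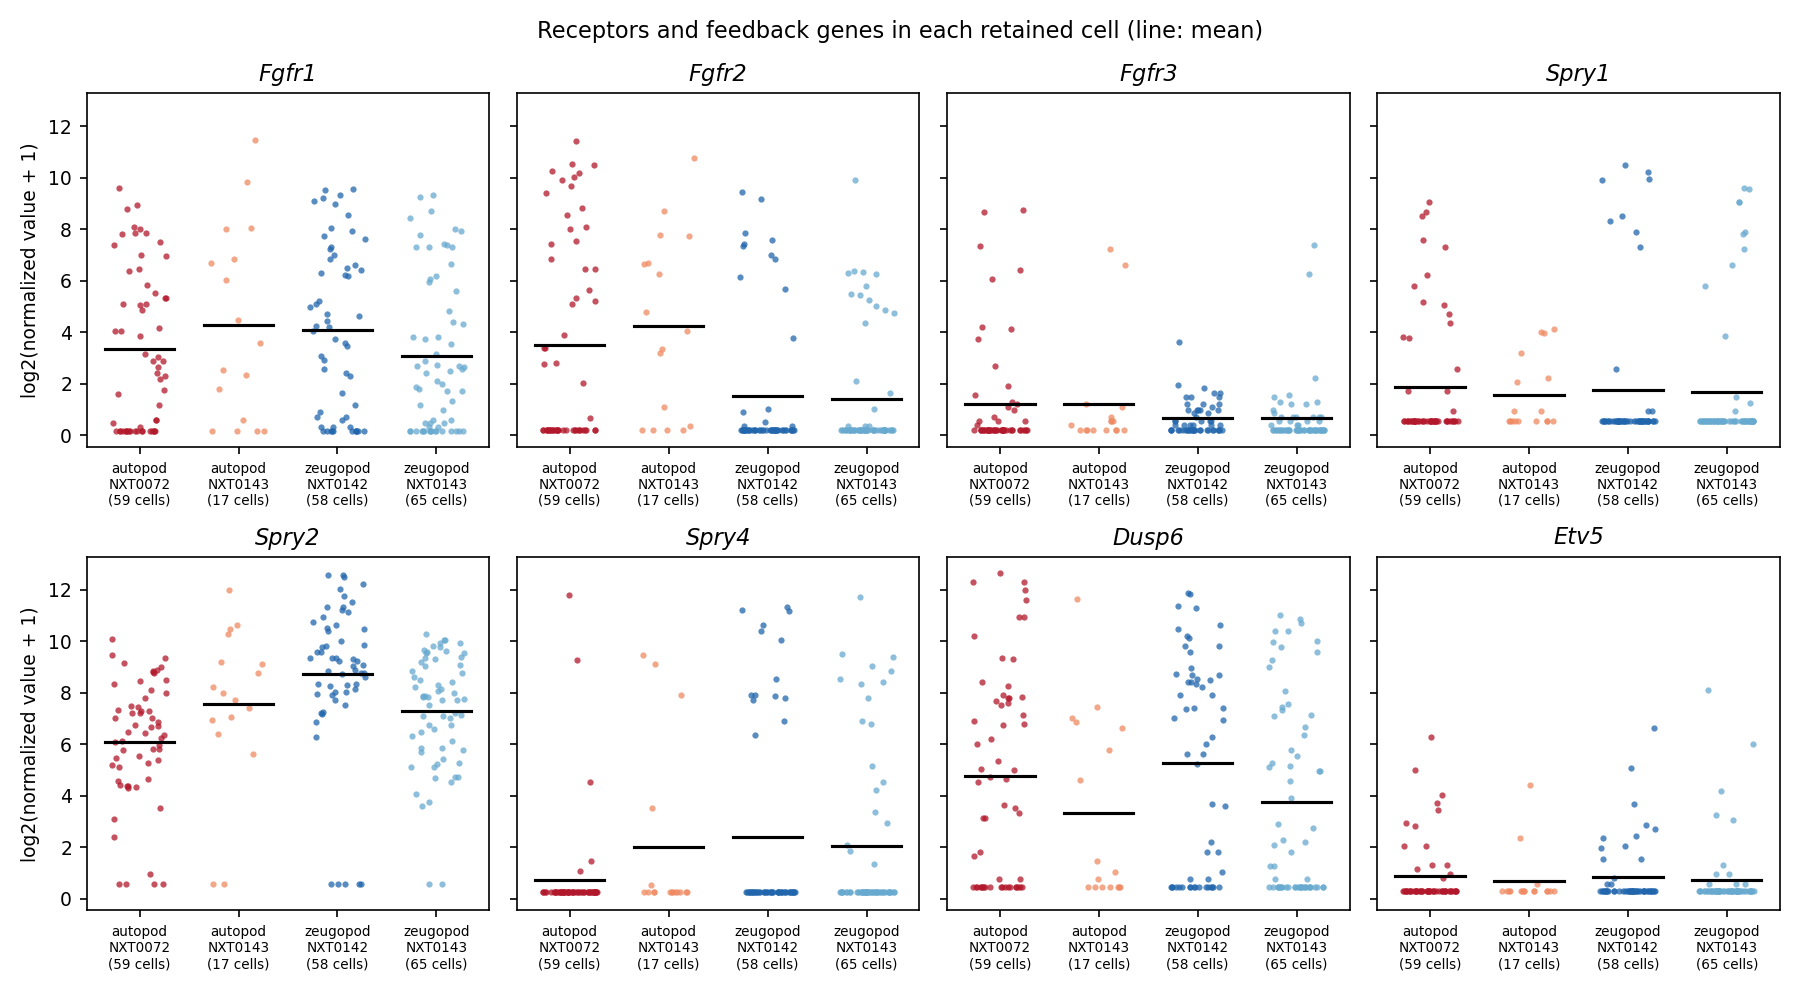
Log2(normalized value + 1) of each gene with normalized values in every retained cell (points), by tissue and run, with the mean of each group as a line. The points of *Fgfr2*, *Spry1*, *Spry4* and *Dusp6* include cells at the value for 0 reads in every group and spread from there to high values, while *Spry2* had group means of 6.10, 7.57, 8.71 and 7.29 from left to right.

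Since normalized values are per length, levels can be ordered between genes, here by the mean normalized value above the value for 0 reads. *Spry2* led in zeugopod cells of NXT0142 (1183) and NXT0143 (329) and in autopod cells of NXT0143 (653), and *Dusp6* led in autopod cells of NXT0072 (557). Among the receptors, *Fgfr2* was above *Fgfr1* in autopod cells of NXT0072, 232 against 69.5, and below it in the other 3 groups. In the zeugopod the mean of *Fgfr1* was 110 in NXT0142 and 62.6 in NXT0143, and that of *Fgfr2* was 41.5 and 23.8. *Fgfr3* and *Etv5* were in the lower part of the order in each group.

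Single cells decided parts of this order. Without its highest cell the mean normalized level of *Spry4* in autopod cells of NXT0072 was 11.1 in place of 71.4, and that of *Dusp6* in autopod cells of NXT0143 was 36.9 in place of 221. In the same group *Fgfr2* was at 73.4 in place of 171, and the mean of *Fgfr1* also dropped by more than 1.5 times. *Fgfr2* in zeugopod cells of NXT0143 was at 9.39 in place of 23.8, and *Spry4* there was at 61.4, a drop by more than 1.5 times as well. The leading gene of each group was the same without its highest cell, *Spry2* at 1096, 314 and 441 and *Dusp6* at 457. Neighbours further down, such as *Spry1* and *Fgfr1* in the zeugopod, differed by less than the spread between cells.

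The promoters of *Spry2*, *Dusp6* and *Fgfr2* are shown because the first pair are the induced genes with the highest levels and *Fgfr2* is the receptor that differed between tissues. Each is a window of 250 bases before to 50 bases after a start listed by RefSeq on GRCm38.p6, which for *Fgfr2* lies inside the annotated span given above and not at its end, and capitals mark CGGAA or, on the other strand, TTCCG, letters that hold the core recognised by ETS factors. The windows are chr14:105896770-105897069 on the minus strand for *Spry2*, chr10:99262981-99263280 on the plus strand for *Dusp6* and chr7:130266759-130267058 on the minus strand for *Fgfr2*.
Spry2: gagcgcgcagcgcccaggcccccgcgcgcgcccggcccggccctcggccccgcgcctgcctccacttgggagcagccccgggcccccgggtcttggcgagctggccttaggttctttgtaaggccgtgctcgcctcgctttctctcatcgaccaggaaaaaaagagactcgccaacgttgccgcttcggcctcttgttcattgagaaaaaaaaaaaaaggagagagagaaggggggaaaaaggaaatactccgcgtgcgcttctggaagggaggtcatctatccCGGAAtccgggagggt
Dusp6: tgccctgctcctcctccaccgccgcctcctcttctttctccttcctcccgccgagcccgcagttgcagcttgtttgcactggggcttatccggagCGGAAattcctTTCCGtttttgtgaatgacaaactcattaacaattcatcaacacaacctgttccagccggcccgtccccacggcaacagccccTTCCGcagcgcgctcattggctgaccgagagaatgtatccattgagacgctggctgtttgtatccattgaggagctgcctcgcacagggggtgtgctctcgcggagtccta
Fgfr2: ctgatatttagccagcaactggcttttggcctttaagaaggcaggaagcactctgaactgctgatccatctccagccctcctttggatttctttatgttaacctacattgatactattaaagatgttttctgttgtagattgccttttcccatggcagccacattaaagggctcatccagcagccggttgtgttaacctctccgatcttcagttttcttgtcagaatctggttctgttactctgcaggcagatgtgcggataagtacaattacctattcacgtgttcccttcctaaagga
The letters occurred 3 times for *Dusp6*, 1 time for *Spry2* and 0 times for *Fgfr2*. Of the 9 genes, 6 had 8 promoters in the table, and 2 of the 8 held the letters, as did 9822 of all 32851 promoters (29.9%). The table had no entry for *Fgfr1*, *Spry4* and *Etv4*.

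Tissue differences were measured as autopod minus zeugopod in mean log2(normalized value + 1), within NXT0143 and between the autopod group of NXT0072 and the zeugopod group of NXT0142, where tissue and run cannot be told apart. A gene was called past the fold at an absolute difference of 1 or more, among the 4898 genes tested, those detected at 5 reads in 25% or more of the autopod or of the zeugopod cells. Of the 9 genes 6 met this filter, and *Fgfr3*, *Etv4* and *Etv5* did not. The median difference of all 4898 genes was 0.18 within NXT0143 and -0.34 between the other runs, and each value below is to be read against it.

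*Fgfr2* was higher in autopod cells in both comparisons, by 2.85 within NXT0143 (means 4.24 and 1.40) and by 1.95 between NXT0072 and NXT0142 (means 3.49 and 1.54). Leaving out any 1 cell kept the *Fgfr2* difference between 2.44 and 3.10 within NXT0143 and between 1.81 and 2.08 between the other runs. *Fgfr2*, *Spry1* and *Spry4* met the filter through 1 tissue only, at 51.3% of autopod and 24.4% of zeugopod cells, 26.3% and 16.3%, and 9.21% and 26%, so nothing is read from how many of the 6 genes differed. Of the 6 genes *Fgfr2* alone was past the fold in the same direction in both comparisons, where 1.98% of all tested genes were higher and 4.12% lower in both. The study listed *Fgfr2* among the genes higher in the autopod from these same cells, so the value is a description and not independent evidence. Chondrogenic cells, described further on, made up 46.1% of autopod and 30.9% of zeugopod cells, and without them the *Fgfr2* differences were 3.13 and 1.54.

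Within NXT0143, 2 of the 6 genes were higher past the fold, *Fgfr2* and *Fgfr1*, against 18.4% of all tested genes, and 0 were lower, against 9.21%, or 719 in place of 451 genes on CPM. The *Fgfr1* difference of 1.21 was below the fold on CPM (reads per 1000000 reads on genes), 0.86, and fell to 0.77 without 1 of the cells. Between NXT0072 and NXT0142 the *Fgfr1* difference had the opposite sign, -0.72. The receptor *Fgfr3* was higher in the autopod by 0.57 and 0.55 in the 2 comparisons, short of the fold, and without 1 cell by 0.19 within NXT0143. The median over the 3 receptors was 1.21 and 0.55, and without chondrogenic cells 1.72 and 0.05.

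Of the feedback genes none was higher in the autopod past the fold in either comparison with all cells. Between NXT0072 and NXT0142, *Fgfr2* was the 1 gene of the 6 that was higher past the fold (6.64% of all tested genes), and *Spry2* at -2.60 and *Spry4* at -1.65 were lower, against 24.3% of all tested genes. Within NXT0143 neither *Spry2* nor *Spry4* differed past the fold, at 0.28 and -0.06, and the sign of the *Spry2* value turned on CPM (-0.25). *Dusp6* was lower in the autopod, short of the fold, at -0.44 and -0.51, and at -0.81 and -0.27 on CPM. Without 1 of the cells the *Dusp6* difference within NXT0143 was -0.96. Without chondrogenic cells the *Dusp6* difference was 2.00 within NXT0143, where 9 autopod cells remained, and -1.41 between the other runs, so its direction depended on the cells included. Without the same cells the *Spry2* differences were -0.35 and -3.44 and the *Spry4* differences -0.95 and -2.96.

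*Spry1* (-0.12 and 0.09) and *Etv5* (-0.02 and 0.04) were close to no difference in both comparisons, and between NXT0072 and NXT0142 both turned sign on CPM, to -0.03 and -0.02. The median over the 5 feedback genes with normalized values was -0.06 within NXT0143 and -0.51 between the other runs.

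**Figure D3:**
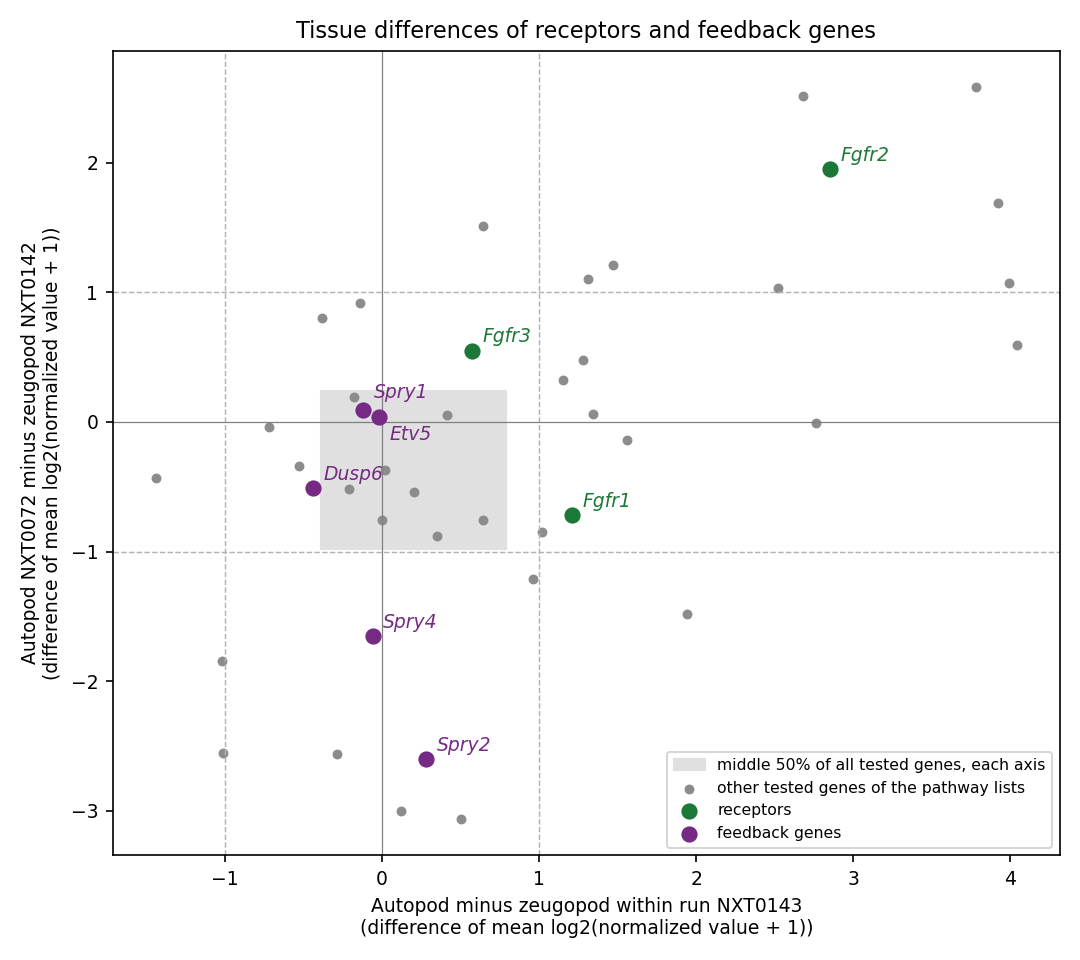
Difference of mean log2(normalized value + 1), autopod minus zeugopod, within NXT0143 (x axis) and between NXT0072 and NXT0142 (y axis), for receptors, feedback genes and other tested genes of the pathway lists; the grey box spans the middle 50% of all tested genes. *Fgfr2*, at 2.85 and 1.95, lies in the upper right, while *Spry2*, at 0.28 and -2.60, lies low on the y axis alone.

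The same genes also differed between runs of 1 tissue. In the autopod, NXT0143 minus NXT0072 (all-gene median 0.14), *Spry2* at 1.47 and *Spry4* at 1.26 were higher past the fold, against 22.2% of all tested genes, and *Dusp6* at -1.46 was lower, against 11.8%. Without 1 of the cells the *Spry4* difference was 0.79. In the zeugopod, NXT0143 minus NXT0142 (all-gene median -0.36), 0 of the 6 genes were higher, against 1.1%, and *Spry2* at -1.41 and *Dusp6* at -1.53 were lower, against 15.1%, with *Spry2* at -0.85 on CPM. On CPM 173 in place of 54 of all tested genes were higher there and 471 in place of 738 lower. *Fgfr2* differed between runs by 0.75 in the autopod and -0.15 in the zeugopod, less than between tissues. *Fgfr1* differed between runs by 0.94 in the autopod and was lower in zeugopod NXT0143 by about as much, close to its tissue difference of 1.21 within NXT0143. On CPM the mean log2 values of *Fgfr1* were 5.07 in autopod NXT0143 and 3.98 in autopod NXT0072, a gap past the fold. In zeugopod NXT0143 and NXT0142 they were 4.21 and 4.84, a smaller gap. For *Spry2*, *Spry4* and *Dusp6*, each of these run differences past the fold was larger in size than the tissue difference of the same gene within NXT0143.

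Other genes of the pathway were read from lists of receptors, ligands, signal transducers, feedback and target genes, immediate early genes and heparan sulfate genes. Of their 69 genes 35 were tested, and 7 were higher and 2 lower past the fold in autopod cells in both comparisons, against 1.98% and 4.12% of all tested genes. The 7 higher genes were 4 immediate early genes, which cell handling can also raise, 2 heparan sulfate genes and 1 receptor gene. *Fgfrl1*, a receptor without a kinase domain, was higher by 1.31 within NXT0143 and 1.10 between the other runs, the same direction as *Fgfr2*. *Flrt2*, whose product is a membrane protein of the FLRT family, was lower in the autopod, at -1.01 and -2.55. Of 12 tested signal transducers, such as the RAS and RAF genes, 0 were past the fold in the same direction in both comparisons.

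Among the heparan sulfate genes, 10 of 15 tested, *Sulf1*, which encodes a sulfatase that trims heparan sulfate, was higher in the autopod by 3.99 and 1.07, and its relative *Sulf2* was lower, at -1.02 and -1.84. *Sulf1* also differed between runs of 1 tissue, NXT0143 minus the other run, by 1.64 in the autopod and -1.29 in the zeugopod. *Ext1*, a heparan sulfate polymerase gene, was higher by 1.47 and 1.21. None of the 11 ligand genes met the filter, and the number tested was 0. *Fgf10*, the ligand gene of limb mesenchyme, was detected in 19.7% of autopod and 9.76% of zeugopod cells. *Fgf18* was detected in 1.32% and 8.13%, and the ridge gene *Fgf8* in 0 of 76 autopod cells, with a limit of 3.95%, and 1.63% of zeugopod cells.

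The immediate early genes, which ERK activity and also cell handling can raise, differed between tissues and between runs. Their median difference over the 7 of 9 tested was 2.76 within NXT0143 and 1.03 between the other runs, with *Fos*, *Fosb*, *Egr1* and *Dusp1* higher past the fold in both, as were 1.98% of all tested genes, while the medians of the feedback genes were -0.06 and -0.51. Between runs of 1 tissue, NXT0143 minus the other run, their median was 2.35 in the autopod, with 6 of 7 higher past the fold against 22.2% of all tested genes, and 0.19 in the zeugopod, with 1 of 7, *Egr1*, against 1.1%. *Jun* was lower past the fold between NXT0072 and NXT0142, at -1.21, and at 0.96 within NXT0143. Summed CPM of all 9, with *Fos* the most abundant in each group and no gene at 0 reads, was 5418 in autopod NXT0072, 11655 in autopod NXT0143, 3218 in zeugopod NXT0142 and 6027 in zeugopod NXT0143. Their part in the differences of the receptors and feedback genes was not tested.

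Coordination between receptors and feedback genes was described by Spearman coefficients over the cells of 1 tissue and run, which share their library preparation and differ in depth. Over the 8 pairs of a tested receptor with a tested feedback gene, the median coefficient of normalized values was 0.03 in autopod cells of NXT0072, 0.05 in zeugopod NXT0142 and 0.06 in zeugopod NXT0143. The corresponding medians over all pairs of tested genes were 0.15, 0.07 and 0.07. On CPM the receptor with feedback medians were 0.00, 0.07 and 0.05, against 0.07, 0.03 and 0.03 for all pairs. In the 17 autopod cells of NXT0143 the median was 0.12, against 0.09 for all pairs.

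Pairs of a receptor with a feedback gene reached a coefficient of 0.3 in 0 of 8 cases in autopod NXT0072 (16.3% of all pairs of tested genes), 1 of 8 in zeugopod NXT0142 (5.09%) and 0 of 8 in zeugopod NXT0143 (3.97%). The 1 pair was *Fgfr2* with *Spry1*, at 0.33, and the same pair was at -0.15 in autopod NXT0072 and 0.19 in zeugopod NXT0143. On CPM, where 5.07%, 2.44% and 1.67% of all pairs reached 0.3 in these 3 groups, *Fgfr2* with *Spry1* was at -0.23, 0.40 and 0.21. *Fgfr1* with *Spry2*, the pair detected together most often, lay between -0.05 and 0.04 in these groups, on CPM between -0.17 and -0.11, and at 0.37 in autopod NXT0143.

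Among the feedback genes the highest coefficient of tested pairs in the 3 larger groups was that of *Spry2* with *Spry4*. Over their 6 tested pairs the median coefficient was 0.14, 0.17 and 0.06 in autopod NXT0072, zeugopod NXT0142 and zeugopod NXT0143, and 0, 1 and 1 pairs reached 0.3, in each case *Spry2* with *Spry4*. That pair stood at 0.25, 0.43 and 0.31, on CPM at 0.05, 0.36 and 0.35, and given the genes detected at 0.21, 0.31 and 0.29. In autopod NXT0143 it was at 0.14, and given the genes detected at -0.06. All 35 cells with *Spry4* detected in these groups also had *Spry2*, but *Spry2* was detected in 91.5%, 91.4% and 96.9% of all their cells.

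Pairs with a gene below the filter rest on fewer cells. Over the 15 pairs of a receptor with a feedback gene that had normalized values, the medians were 0.14, 0.04 and 0.02 in the same 3 groups, and 2, 1 and 0 pairs reached 0.3. The 2 pairs in autopod NXT0072 were *Fgfr3* with *Dusp6* at 0.40, against 0.15 and -0.11 in the zeugopod groups, and *Fgfr3* with *Spry4* at 0.36, where 1 cell held both. *Fgfr3* with *Spry2* was at 0.60 in autopod NXT0143, where 4 cells had *Fgfr3*, and at 0.14, 0.25 and 0.04 in the larger groups, so none of these receptor pairs was alike in all groups. *Spry4* with *Etv5* had coefficients of 0.45, 0.42 and 0.21 in the 3 groups, with 9 cells that held both, of which 1 was in autopod NXT0072, and 0.04 in autopod NXT0143. *Fgfr2* with *Fgfr3*, a pair of receptors, had 0.43, 0.22 and 0.09, with 20 cells that held both. In the autopod *Fgfr2* was detected in 14 of 17 cells with *Fgfr3* (82.4%, interval 56.6 to 96.2) and in 25 of 59 without it (42.4%, 29.6 to 55.9). After thinning the *Fgfr2* shares were 77.8% of 9 and 49.2% of 63 autopod cells, with intervals that overlapped.

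**Figure D4:**
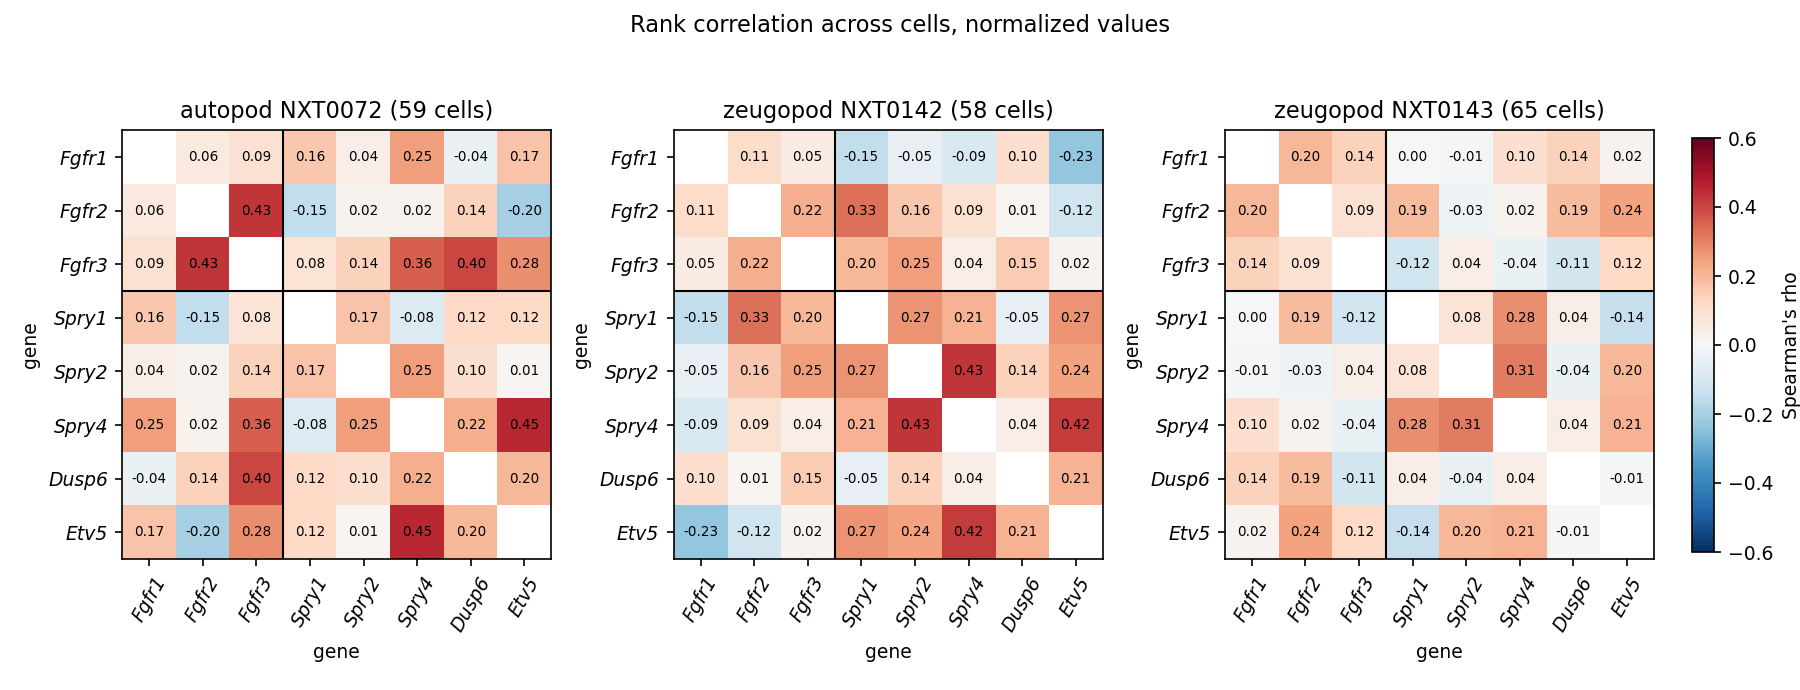
Spearman coefficients over cells between the genes with normalized values, in autopod NXT0072 (59 cells), zeugopod NXT0142 (58 cells) and zeugopod NXT0143 (65 cells). *Spry2* with *Spry4* was at 0.25, 0.43 and 0.31, while the median over receptor and feedback pairs of tested genes was 0.03, 0.05 and 0.06.

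The genes most like each tested gene were those with the highest value of the lowest coefficient over autopod NXT0072, zeugopod NXT0142 and zeugopod NXT0143, of 4897 candidates. For *Fgfr2* they were *Col9a3* (0.31), a cartilage collagen gene, *Dvl3* (0.23) and *Gadd45b* (0.23). For *Fgfr1* they were *Aldoa*, *Ivns1abp* and *Serinc3*, each at 0.27. Neither receptor had a feedback gene among its closest genes.

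For *Spry2* the closest were *Rnd3* (0.32), *Fads1* (0.31) and *Lpar1* (0.29), and on CPM their lowest coefficients were 0.15, 0.09 and -0.01. For *Spry4* they were *Pdcd10* (0.34), *Nudt4* (0.33) and *Commd1* (0.30), and for *Spry1* they were *Cdk11b* (0.27), *Fam126a* (0.27) and *Arhgef12* (0.25). For *Dusp6* they were *Fbxo46* (0.23), *Id4* (0.20) and *Tnfaip1* (0.18), the lowest values of the 6 genes. On CPM the lowest coefficients of all genes named for the 6 lay between -0.01 and 0.28. These coefficients are low, and in counts this sparse a low coefficient is no finding.

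A second view of coordination counted how many of the 6 feedback genes were detected in each cell. The mean was 2.08 in autopod NXT0072, 1.94 in autopod NXT0143, 2.21 in zeugopod NXT0142 and 2.11 in zeugopod NXT0143. Autopod cells with *Fgfr1* had 2.16 feedback genes and those without it 1.85, and zeugopod cells had 2.14 and 2.19. For *Fgfr2* the means with and without the receptor were 2.00 and 2.11 in the autopod and 2.33 and 2.10 in the zeugopod. For *Fgfr3* they were 2.29 and 1.98 in the autopod and 2.42 and 2.08 in the zeugopod.

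After thinning, the mean number of feedback genes with minus without the receptor was -0.12 and -0.11 for *Fgfr1*, -0.14 and 0.31 for *Fgfr2* and 0.19 and -0.47 for *Fgfr3*, autopod first. The zeugopod value for *Fgfr3* rested on 4 cells and had been 0.34 before thinning. By run with all reads the *Fgfr3* difference was 0.48 in autopod NXT0072 and 0.76 in zeugopod NXT0142, but -0.25 and -0.13 in the autopod and zeugopod of NXT0143, so the runs disagreed. Thinned, the value of zeugopod NXT0142 had the opposite sign, with the receptor in 1 cell. The *Fgfr2* difference was -0.23 and 0.42 in the autopod and 0.01 and 0.44 in the zeugopod, NXT0143 given last, and thinned -0.13 and -0.16 in the autopod and 0.25 and 0.36 in the zeugopod. The *Fgfr1* difference was 1.62 in autopod NXT0143, where 5 cells lacked the receptor, and 0.46 thinned, and it was -0.01, -0.35 and 0.16 with all reads in autopod NXT0072, zeugopod NXT0142 and zeugopod NXT0143.

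Some cells had no receptor detected. None of the 3 receptors was detected in 12 of 76 autopod cells (15.8%, interval 8.43 to 26) and 28 zeugopod cells (22.8%, 15.7 to 31.2). All 3 receptors were detected in 14.5% of autopod cells (7.45 to 24.4) and 4.88% of zeugopod cells (1.81 to 10.3). These intervals overlapped, and a receptor not detected at this depth may still have been expressed.

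Cells were also divided by markers of cartilage formation, of which 3 of 5 (*Sox9*, *Col2a1*, *Acan*, *Col9a1*, *Matn1*) were required at 5 reads or more. This class held 35 autopod and 38 zeugopod cells. The summed CPM of the 5 markers was 3401, 2348, 1763 and 1911 in autopod NXT0072, autopod NXT0143, zeugopod NXT0142 and zeugopod NXT0143, with *Sox9* the most abundant in the first 3 groups, *Col2a1* in the last, and *Matn1* at 0 reads in the first 3. Chondrogenic cells had fewer genes detected than other cells, a median of 3390 against 3890 in the autopod and 3870 against 4051 in the zeugopod, but not in zeugopod NXT0143, where it was 3882 against 3718.

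*Fgfr2* was detected more often in chondrogenic cells of both tissues. Its share was 65.7% (interval 47.8 to 80.9) against 39% of other cells (24.2 to 55.5) in the autopod, where the intervals overlapped. In the zeugopod it was 42.1% (26.3 to 59.2) against 16.5% (9.31 to 26.1). The direction was the same in all 4 groups, at 63% against 34.4%, 75% against 55.6%, 36.8% against 17.9% and 47.4% against 15.2% in autopod NXT0072, autopod NXT0143, zeugopod NXT0142 and zeugopod NXT0143. Within each group the intervals overlapped. After thinning the *Fgfr2* shares were 64.7% against 42.1% in the autopod and 32.4% against 15.9% in the zeugopod, with intervals that overlapped in both. Among cells outside the class *Fgfr2* was detected in 39% of autopod cells (24.2 to 55.5) and 16.5% of zeugopod cells (9.31 to 26.1), with intervals that overlapped.

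*Fgfr3* was detected in 31.4% of chondrogenic and 14.6% of other autopod cells, and in 26.3% and 18.8% in the zeugopod. After thinning it was in 20.6% and 5.26% in the autopod, and in 10.8% of chondrogenic cells and 0 of 82 other cells in the zeugopod, where 3 cells would be 3.66%. By run the zeugopod shares of *Fgfr3* with all reads were 21.1% against 25.6% in NXT0142 and 31.6% against 13% in NXT0143, so the direction differed between runs. *Fgfr1* was in 84.2% of chondrogenic (interval 68.7 to 94) and 63.5% of other zeugopod cells (52.4 to 73.7), with intervals that overlapped. Thinned, the shares were 78.4% (61.8 to 90.2) and 48.8% (37.6 to 60.1). By run they were 78.9% against 71.8% in NXT0142 and 89.5% against 56.5% in NXT0143 with all reads. Thinned, they were 83.3% against 57.9% in NXT0142 and 73.7% against 40.9% in NXT0143. In the autopod the *Fgfr1* shares were 62.9% and 65.9%.

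The feedback gene *Spry4* had the opposite pattern in the zeugopod, where it was detected in 5.26% of chondrogenic and 35.3% of other cells, and thinned in 5.41% and 34.1%. In NXT0142 it was in 0 of 19 chondrogenic cells, where 3 would be 15.8%, and in 35.9% of other cells, and in NXT0143 in 10.5% and 34.8%. In the autopod the *Spry4* shares were 11.4% and 7.32%. *Dusp6* was detected in 57.9% and 58.8% of chondrogenic and other zeugopod cells, but the runs differed, with 47.4% against 71.8% in NXT0142 and 68.4% against 47.8% in NXT0143. In autopod cells of NXT0143 *Dusp6* was in 1 of 8 chondrogenic and 6 of 9 other cells. In those of NXT0072 the *Dusp6* shares were 59.3% and 65.6%, and thinned 57.7% and 53.3%.

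**Figure D5:**
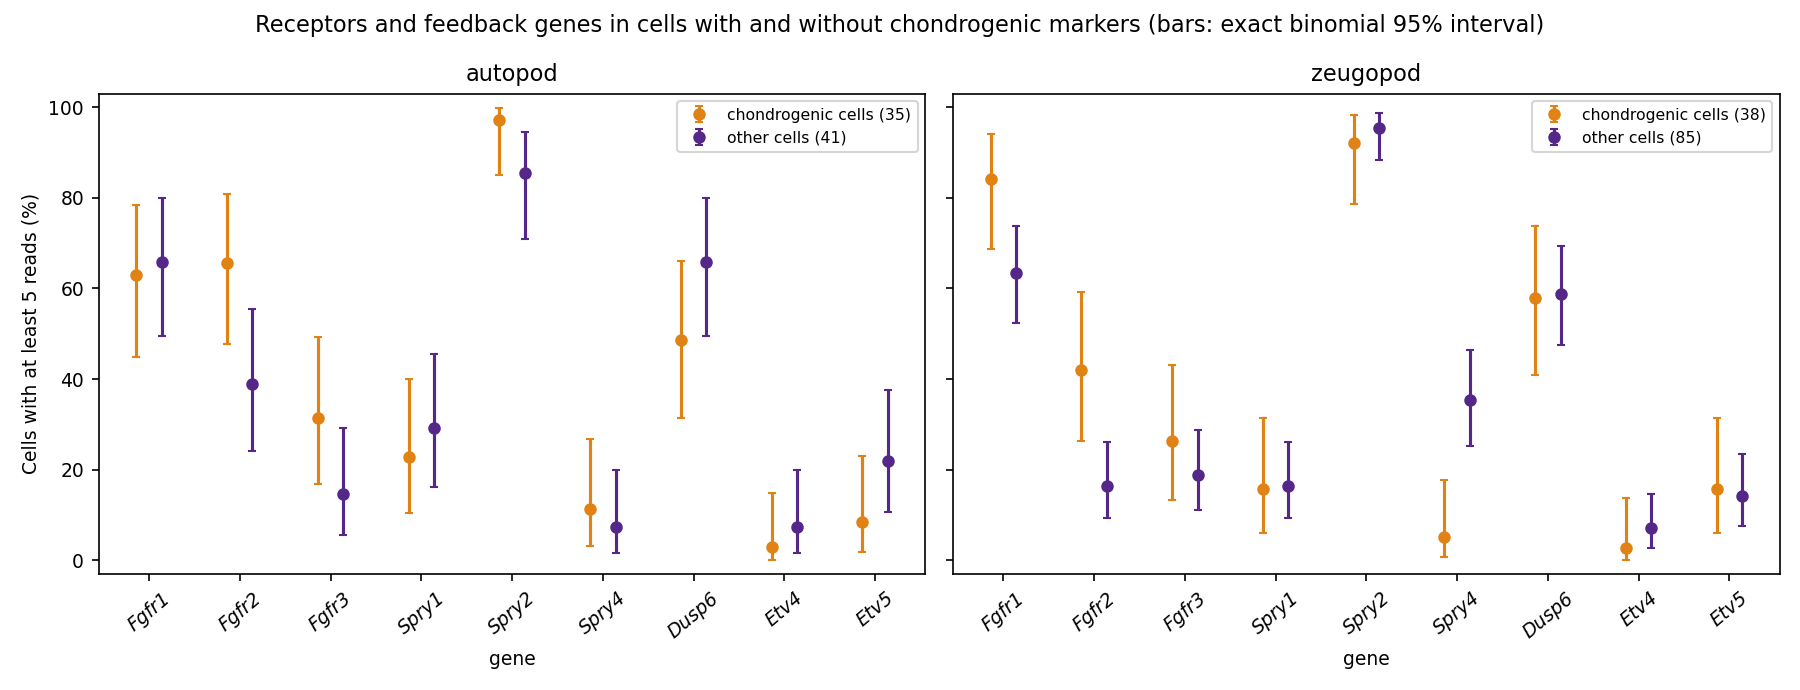
Share of cells with at least 5 reads of each gene (y axis, percent) in cells with and without the chondrogenic marker class, autopod and zeugopod, with exact binomial 95% intervals. *Fgfr2* was higher in chondrogenic cells of both tissues, 65.7% against 39% and 42.1% against 16.5%, and *Spry4* was lower in those of the zeugopod, 5.26% against 35.3%.

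Interdigit cells, with 2 of the 3 markers *Aldh1a2*, *Msx2* and *Bmp7*, were 17 of 76 autopod cells, and *Spry1* was detected in 58.8% of them and in 16.9% of other autopod cells. Thinned, the *Spry1* shares were 35.3% and 12.7%. In NXT0072, with 11 of these interdigit cells, they were 63.6% against 16.7% with all reads and 54.5% against 11.1% thinned. In NXT0143 they were 50% against 18.2% with all reads, and thinned 0 of 6, with a limit of 50%, against 20%. The medians of genes detected were 4504 in autopod interdigit cells and 3414 in other autopod cells. The summed CPM of the 3 interdigit markers was 677 and 907 in the autopod groups of NXT0072 and NXT0143, led by *Aldh1a2*, and 77.6 and 43.5 in the zeugopod groups of NXT0142 and NXT0143, led by *Bmp7*, with none at 0 reads.

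Tendon-marker cells, with 2 of *Scx*, *Tnmd* and *Tnc*, were 17 zeugopod and 0 autopod cells, the latter with a limit of 3.95%, and *Dusp6* had a mean log2(normalized value + 1) of 6.70 in them and 4.11 in other zeugopod cells. By run the *Dusp6* means were 8.03 against 4.63 in NXT0142 and 4.25 against 3.70 in NXT0143, where 6 cells carried the class. *Dusp6* was detected in 70.6% (interval 44 to 89.7) against 56.6% (46.6 to 66.2) of these zeugopod cells, with intervals that overlapped. By run the *Dusp6* shares were 81.8% against 59.6% in NXT0142 and 50% against 54.2% in NXT0143, so the direction differed between runs. The summed CPM of the tendon markers was 4.33 and 28.3 in the autopod groups, led by *Scx* with *Tnmd* at 0 reads, and 163 and 279 in the zeugopod groups, led by *Tnc*.

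Cycling cells, with 3 of *Mki67*, *Top2a*, *Ccnb1* and *Cdk1*, were 18 autopod and 23 zeugopod cells, and *Fgfr1* was detected in 88.9% of them against 56.9% of other cells in the autopod and in 100% against 63% in the zeugopod. These *Fgfr1* intervals overlapped in the autopod but not in the zeugopod. Cycling cells had more genes detected, 4170 against 3402 and 5053 against 3900. Thinned, the *Fgfr1* shares were 70.6% against 49.1% and 73.9% against 54.2%, with intervals that overlapped in both tissues. By run the thinned zeugopod shares were 85.7% against 59.5% in NXT0142 and 55.6% against 50% in NXT0143, so most of the gap was in NXT0142. *Spry4* was in 43.5% of cycling and 22% of other zeugopod cells, and thinned in 43.5% and 20.8%, with intervals that overlapped each time. In the autopod the *Spry4* shares were 22.2% and 5.17%, and thinned 5.88% and 5.45%. *Fgfr2* was in 33.3% of cycling and 56.9% of other autopod cells, and in 30.4% and 23% in the zeugopod, with intervals that overlapped. The summed CPM of the 4 markers was 1180, 464, 1115 and 681 in autopod NXT0072, autopod NXT0143, zeugopod NXT0142 and zeugopod NXT0143, with none at 0 reads.

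No cell of either tissue carried the muscle, epithelium, endothelium or macrophage class (0 cells for each, where 3 cells would be 3.95% of the autopod and 2.44% of the zeugopod). The summed CPM of these lists per group was at most 0.881 for muscle, 60.1 for epithelium, 0.506 for endothelium and 0.796 for macrophage, and *Epcam* was the most abundant epithelial gene. Summed over the cells of a tissue, *Myod1* and *Myog* were at 0 reads in both, as was *Krt5*, while *Myf5*, *Krt14*, *Cdh1*, *Krt8*, *Emcn* and *Cx3cr1* were at 0 reads in the autopod alone and *Cdh5* in the zeugopod alone. Blood could not be assessed, since 1 of 4 markers was in the table and 3 were required. The part of any of these classes in the differences of receptors and feedback genes was not tested.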

How the data were processed

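The authors mapped reads with Bowtie2 (version not stated) and deposited read counts, in the unit count, of 23165 genes and 92 spike-ins in 225 cells, and a normalized signal of 10948 genes in 199 cells. The deposited signal is not on a log scale: the authors divided counts by spike-in size factors centred run by run, and then by the length of the gene in kb, and a gene with 0 reads is listed at 1 divided by its length. *Etv4* is not in the normalized table. The size factors implied by counts and signal were each proportional to a spike-in total of the count table, mostly under the name of another cell. Reads per implied size factor had a Spearman coefficient with the genes detected of 0.94, 0.75 and 0.72 in NXT0072, NXT0142 and NXT0143, against 0.03, 0.36 and 0.22 for reads per spike-in total under the name of the same cell, so spike-ins were not used cell by cell. Mapping was not repeated.

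From the counts and the signal, shares of cells with at least 5 reads, CPM, differences of mean log2(value + 1) between groups of cells and Spearman coefficients over cells were computed. Spike-ins, 3.05% of reads over the 225 cells, were kept out of library sizes. The tools were Python 3.11.15 with numpy 2.4.6, pandas 2.3.3, scipy 1.17.1 and matplotlib 3.10.9. Genes were tested when detected at 5 reads in 25% or more of autopod or of zeugopod cells, which left 4898, and the fold threshold was 1 on the log2 scale. Cells were thinned at random to 500000 reads on genes (seed 42), leaving out shallower cells. Cells were grouped by tissue and run, retained cells were those of the authors' filter, and the number of columns of cells not used was 0. No doublet caller was run, and an alternative left out cells above the 95th percentile of genes detected in their tissue. Gene positions are from GENCODE M21. The calculations were tested on simulated data.

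The members and lists were chosen with earlier results of these data known. Named genes were every member, every gene of the pathway lists past the fold in the same direction in both tissue comparisons, and for each tested member the 3 genes with the highest lowest coefficient over the 3 larger groups; *Fgf8*, *Fgf10*, *Fgf18* and *Ctbp2* were named after their values were seen. A class required at least 5 reads of a set number of markers: muscle 3 of *Myod1*, *Myog*, *Pax7*, *Myf5* and *Actc1*, epithelium 3 of *Krt14*, *Krt5*, *Epcam*, *Cdh1* and *Krt8*, endothelium 3 of *Pecam1*, *Cdh5*, *Kdr* and *Emcn*, blood 3 of *Hbb-bt*, *Hba-a1*, *Hbb-y* and *Hba-x*, and macrophage 2 of *Csf1r*, *Aif1* and *Cx3cr1*; the other classes are defined where they are described. The 19 alternatives tried were CPM, pseudocounts of 0.1 and 10, subtraction of the value for 0 reads, thinning, other detection limits, other gene filters, partial coefficients and sets of cells. Leaving out 1 cell at a time, levels without the highest cell, and the class shares thinned or by run were added after seeing the data.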

Additional observations from a re-analysis of the deposited data

Results flagged for a closer look

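*Spry2* was detected at 5 reads or more in 6 of the 26 cells left out by the authors' filter (23.1%, interval 8.97 to 43.6), with 797 reads, above the limit that a count of 0 allows. These cells had a median of 25640 reads on genes and enter no comparison. *Fgfr1* was detected in 2 of them, *Spry4* and *Dusp6* in 1 each, and the other members in 0, where 3 cells would be 11.5%.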

How the results depend on the processing

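The 60 results were recomputed under the alternatives, giving 260 values, of which 223 stayed within the tolerance, 37 moved beyond it and 0 turned the sign of a difference past the fold or of another called value. The moved values included 16 of 140 tissue differences and 14 of 52 shares of cells. The *Dusp6* difference within NXT0143, short of the fold with all cells, ran from -0.81 on CPM to 2.00 without chondrogenic cells. The tolerances were 0.5 on the log2 scale, 0.1 for a coefficient, 0.5 feedback genes per cell, 1.5 times for a count of genes and the binomial interval for a share. With 1 cell left out at a time, 1 of 40 lowest and highest values moved and 0 reversed. The *Fgfr2* difference stayed past the fold in its 7 alternatives, from 1.60 to 3.83 within NXT0143 and from 1.19 to 2.50 between the other runs; the ends are the pseudocounts of 10 and 0.1. Without chondrogenic cells the receptor median within NXT0143 was 1.72, the feedback median between NXT0072 and NXT0142 was -1.41, and in autopod cells of NXT0143, of which 9 remained, the median coefficient was 0.35 for receptor with feedback pairs and 0.17 for feedback pairs. Thinned, the former was -0.02, and the number of feedback genes with minus without *Fgfr3* in the zeugopod was -0.47. On CPM 719 genes in place of 451 were lower within NXT0143, and between the zeugopod runs 173 in place of 54 were higher and 471 in place of 738 lower. The cause was not tested. Depth limits the sparse genes, and the 17 autopod cells of NXT0143 limit the comparison within that run.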
